A study of Mus musculus with 28 samples.

Results

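The comparison is between the epithelium of the mouse intestine at embryonic day E11.5 and the definitive endoderm at E8.25, the sheet of cells from which the gut lining and its organs form. It uses 6 of the 28 arrays of the series, chosen by their titles: 3 labelled as E11.5 intestinal endoderm and 3 as definitive endoderm of E8.25 embryos with 4 to 6 somites. Each intestine sample came from dissected gut domains of 10 to 12 pooled embryos, from which endoderm was isolated by flow cytometry. No treatment is named for either group, and for the isolation of the E8.25 layer, the strain and the genotype the sources used here say nothing. The E8.25 titles name no region of the early gut, and the E11.5 titles name 1 organ. In every difference below, a change with age therefore cannot be separated from a difference of region along the gut. In samples of many cells, fewer cells of a type and less RNA per cell cannot be told apart.

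The definitive endoderm arises at gastrulation and rolls into the gut tube, where signals from the neighbouring mesoderm divide it into regions. In the posterior part the homeodomain factor Cdx2 sets the intestinal fate, and together with Hnf4, Gata and Foxa factors it binds the genes of the later absorptive cell. At E11.5 the mouse intestine is still a tube of dividing pseudostratified epithelium; villi and the mature absorptive, goblet and endocrine cells come later.

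The platform was the Illumina MouseRef-8 v2 bead array. Levels are log2 normalized intensities, and differences are log2 changes, intestine minus endoderm, ± the standard error from a limma model of all 28 arrays. A call needed both a Benjamini-Hochberg adjusted p below 0.05 and a 2-fold change. Probes for sensory receptors, which these tissues should lack, gave each array its detection threshold, their 99th percentile. Where the dimmer group was detected on 0 of its 3 arrays, the change is written as "at least", computed from the detection threshold. The endoderm arrays detected 11907 to 12386 probes and the intestine arrays 11994, 10831 and 9663. Intestine 3 stood apart: 7931 of its deposited values were below 0, and its correlation with the other intestine arrays was 0.968 and 0.967, against 0.993 between those and 0.991 to 0.993 within endoderm. Between the groups the correlation, across genes, was 0.912 to 0.926. Cdh1 and Krt8, which mark epithelium, were detected on all 6 arrays. Ptprc of leukocytes and Pecam1 of blood vessels were detected on 0 of the 6, but of 20 endothelial genes 7 to 8 were detected on the endoderm arrays and 8, 9 and 3 on the intestine arrays.

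Upstream sequence is shown for genes among the largest increases described below: Lgals2, whose promoter held a match to the Cdx motif, Isx, whose level was high in the intestine alone, and the neighbouring copies Serpina1b and Serpina1d. Of the 12 genes with the largest increases, 10 had an entry in the RefSeq promoter table (GRCm38.p6), and Osr2 and Onecut2 did not. The 150 bases before the annotated start are printed 5′ to 3′ along the gene. They lie at chr15:78855530-78855679 (minus strand) for Lgals2, chr8:74873024-74873173 (plus) for Isx, chr12:103738190-103738339 (minus) for Serpina1b and chr12:103773634-103773783 (minus) for Serpina1d. Capitals mark the Cdx motif TTTATNG in Lgals2 and, in the Serpina1 pair, the longest run of bases that both share.
Lgals2: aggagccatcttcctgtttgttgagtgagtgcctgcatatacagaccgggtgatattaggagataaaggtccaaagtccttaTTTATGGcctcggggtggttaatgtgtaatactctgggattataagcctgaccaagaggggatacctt
Isx: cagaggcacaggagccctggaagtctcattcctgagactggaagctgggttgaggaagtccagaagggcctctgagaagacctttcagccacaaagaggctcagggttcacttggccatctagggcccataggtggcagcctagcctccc
Serpina1b: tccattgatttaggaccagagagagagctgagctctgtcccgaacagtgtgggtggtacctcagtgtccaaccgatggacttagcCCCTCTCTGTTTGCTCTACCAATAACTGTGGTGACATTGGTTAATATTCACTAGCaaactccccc
Serpina1d: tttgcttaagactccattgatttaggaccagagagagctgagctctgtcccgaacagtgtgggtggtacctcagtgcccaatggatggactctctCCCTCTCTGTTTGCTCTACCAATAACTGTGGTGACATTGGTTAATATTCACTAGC

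The match in Lgals2 lay on the gene's strand at bases -68 to -62 before the start. The shared run of the Serpina1 pair was 55 bases long, at -65 to -11 in Serpina1b and at -55 to -1 in Serpina1d. On both strands of the table's window (250 bases before and 50 after the start), TTTATNG was found in 1 of the 10 genes with the largest increases. It was found in 10.9% of all 32851 promoters and in 8.6% of the 7798 tested genes with an entry, against 7.84% of the 370 higher genes and 11.7% of the 257 lower ones. The Hnf4 motif CAAAGTCCA was in 0 of the 10 genes and in 0.475% of all promoters, and the palindromic Hnf1 motif in 0 of the 10 and in 0.0396%, so no match overlapped another in these genes.

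Leaving out the globins, 466 genes were higher in the intestine (4.83% of the 9645 tested) and 351 were lower (3.64%). The 12 largest increases included the secreted plasma-type proteins Serpina1b, Serpina1d and Ambp and the transcription factors Osr2, Isx and Onecut2. Anterior and early-embryo regulators, signalling ligands and the imprinted genes Phlda2 and Mest stood among the decreases. Of the increases, 70 genes were detected on no endoderm array, and of the decreases 97 on no intestine array. Both counts rose when intestine 3 was left out, to 520 and 401, with 431 and 322 genes in common. The 3 intestine arrays all lay above the 3 endoderm arrays for 2092 genes (21.7%) and all below for 2690 (27.9%), so separated groups alone are common here. The median change over all genes was -0.04.

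**Figure D1:**
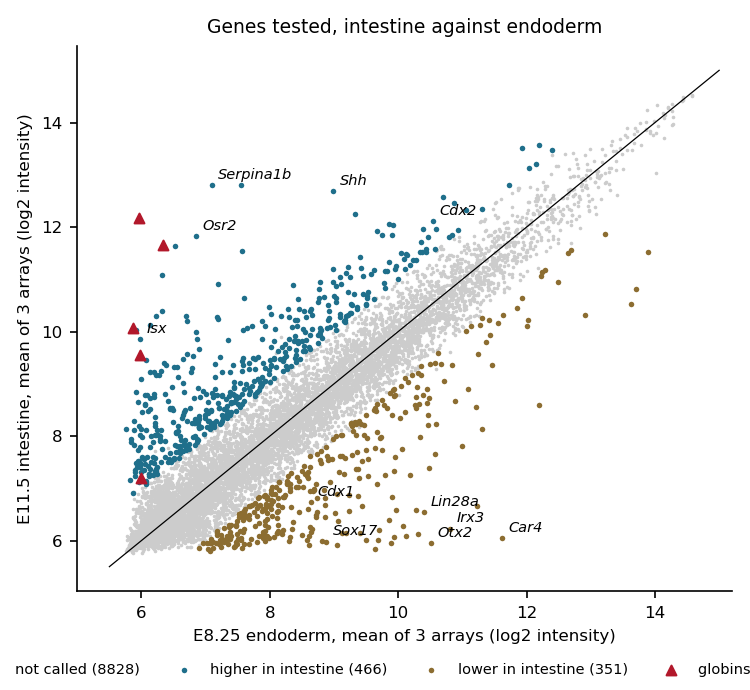
Mean log2 intensity of each tested gene in E8.25 endoderm (horizontal, 3 arrays) and E11.5 intestine (vertical, 3 arrays), with the line of equality. The 466 higher and 351 lower genes are coloured and the 5 globins are triangles; Serpina1b lies farthest above the line among non-globin genes and Car4 farthest below.

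The globins were set apart, because they mark blood rather than epithelium. All 5 tested globin genes were higher on the intestine arrays. The embryonic beta-type globin Hbb-y read 5.91, 5.94 and 6.04 in endoderm and 11.63, 12.02 and 12.85 in intestine, at least 57.4-fold higher (adjusted p = 2.16e-06). The alpha globin Hba-a1 rose by 5.31 ± 0.84, and Hba-x and Hbb-bh1 were at least 13.4-fold and 9.33-fold higher. The smallest change was that of Hbb-bt, with a fitted 1.22 ± 0.29. Intestine 3 was the highest intestine array for each of the 5, and without it all 5 were still called. Summed over the 8 globin genes on the array, the normalized signal was 93.1 to 125 in endoderm and 6730 to 15600 in intestine. These genes have close copies, and how far each probe separates them was not tested. Of 9 other red-cell genes tested, 0 were higher and 1, the carbonic anhydrase Car2, was lower. Slc4a1, the red-cell anion exchanger, read 6.13 to 6.34 in endoderm and 7.65 to 7.73 in intestine, a difference of 1.49 ± 0.60 that missed the threshold (adjusted p = 0.0606). Slc4a1 was called higher in 7 of 21 other settings, over which its difference was 1.42 to 2.48. Alas2, for the first step of haem synthesis, was detected on 0 endoderm arrays and was at least 1.22-fold higher, without a call. Leaving the globins out of the normalization gave 467 higher and 351 lower genes.

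**Figure D2:**
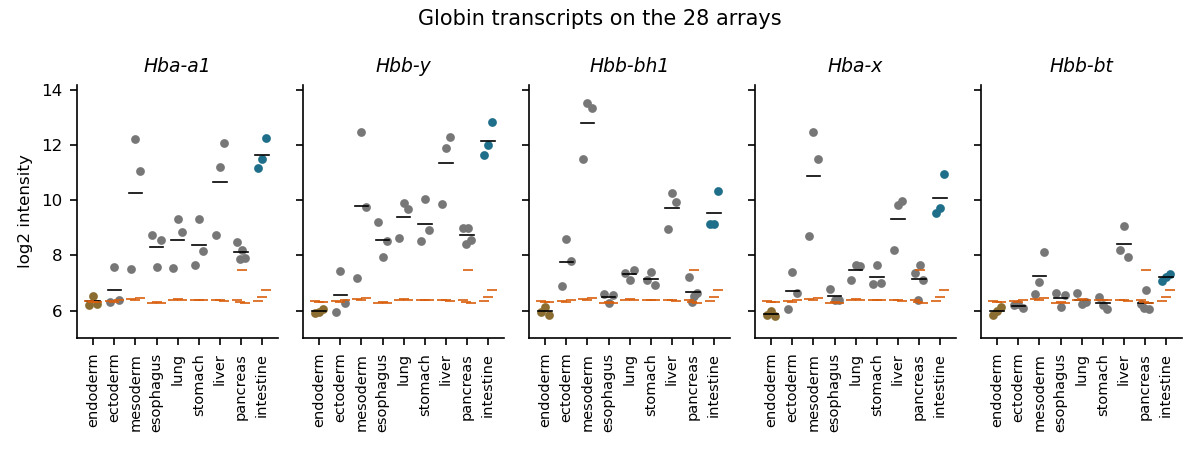
Log2 intensity of the 5 globin genes on each of the 28 arrays by group; black bars are group means and orange marks each array's detection threshold. The intestine arrays (blue) lie above the endoderm arrays (brown) for every globin, and mesoderm and liver arrays also reach high values.

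The largest increase was that of Serpina1b, which codes for an alpha-1-antitrypsin, a secreted inhibitor of neutrophil elastase made mainly by liver. It read 6.90, 7.81 and 6.601 in endoderm and 12.91, 12.86 and 12.63 in intestine, a change of 5.70 ± 0.26 (adjusted p = 3.06e-14). The groups were far apart, and endoderm 2 was the highest of the endoderm arrays. Its copy Serpina1d read 6.35, 6.99 and 6.25 in endoderm and 11.65, 11.54 and 11.70 in intestine, 5.10 ± 0.19 higher. Copies of this family are near-identical, so how the signal divides between them is uncertain. Ambp, for the precursor of alpha-1-microglobulin and bikunin, read 7.41 to 7.64 in endoderm and 12.52 to 13.01 in intestine, 5.25 ± 0.28 higher.

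Osr2, a zinc finger factor of the odd-skipped family, was the transcription factor that rose most. It read 6.73, 7.02 and 6.80 in endoderm and 11.95, 12.01 and 11.52 in intestine, a change of 4.98 ± 0.14. Its intestinal level was also the highest of any organ, since the next was 9.49 in esophagus. Tspan8, a tetraspanin of epithelial membranes, rose by 4.75 ± 0.31 from 6.06 to 6.64 in endoderm to 11.03 to 11.14 in intestine. Stomach stood level with the intestine for Tspan8, at 11.11.

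Slc51a, a subunit of the basolateral bile acid exporter of the ileum, was detected on 0 endoderm arrays and read 10.27, 10.29 and 9.52 in intestine, at least 13.1-fold higher. Scin, an actin-severing protein of the gelsolin family, rose by 4.08 ± 0.25. Lgals2, a galectin of gut epithelium, rose by 4.07 ± 0.09, from 6.14 to 6.38 in endoderm to 10.25 to 10.37 in intestine, with an adjusted p of 2.04e-19. Cpne8, a calcium-dependent membrane-binding copine, was at least 14.02-fold higher. Akr1c19, an aldo-keto reductase, rose by 3.98 ± 0.24, but stomach stood at 11.96 against 11.55 in intestine.

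Isx, an intestine-specific homeobox factor known to repress genes of vitamin A uptake, read 5.89, 6.09 and 5.95 in endoderm, all below detection. In intestine it read 10.29, 9.67 and 9.59, at least 11.53-fold higher, and in the other 7 groups its mean was 5.85 to 5.99. Onecut2, a transcription factor of the Onecut family, rose by 3.71 ± 0.37. It read 7.11 to 7.25 in endoderm and at least 10.73 on each intestine array, and was also high in liver, at 10.25. All 12 of these genes were higher in intestine than in the mean of the other 5 E11.5 organs (2.69% of genes tested were), from 1.35 for Akr1c19 to 4.97 for Osr2. They were chosen for high values on the same intestine arrays, so this is no independent support. The mean also hides single organs: liver stood above intestine for Serpina1b (13.48), Serpina1d (12.41) and Ambp, for which intestine minus pancreas was -0.89.

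**Figure D3:**
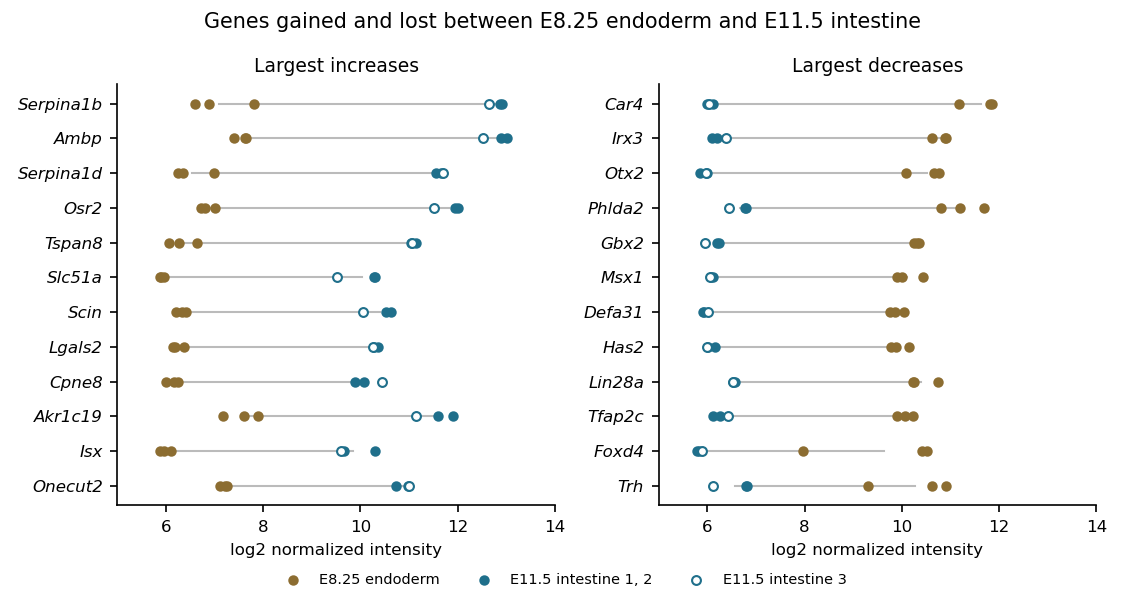
Log2 intensity on each array for the 12 largest increases (left) and 12 largest decreases (right) among genes whose call held without any 1 array; open circles are intestine 3 and grey lines join the group means. The 2 groups are separate for all 24 genes, and endoderm 2 is low for Foxd4, at 7.97.

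The largest decrease was that of Car4, a membrane-bound carbonic anhydrase. It read 11.86, 11.18 and 11.82 in endoderm and 6.12, 6.00 and 6.03 in intestine, at least 34.2-fold lower (adjusted p = 3.04e-15). The Iroquois factor Irx3 read 10.90, 10.88 and 10.63 in endoderm and 6.20, 6.09 and 6.39 in intestine, at least 19.5-fold lower. Its neighbour Irx5 was at least 8.99-fold lower. At E11.5 Irx3 was not lost from all organs: lung stood at 11.90, stomach at 9.63 and esophagus at 9.35.

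Otx2, a head and anterior endoderm homeobox factor, fell from 10.67, 10.09 and 10.77 to 5.86, 5.99 and 5.98, at least 15.9-fold. Gbx2, which bounds Otx2 in the neural plate, was at least 13.8-fold lower, from 10.25 to 10.36 in endoderm. Msx1, a homeobox target of BMP signals, was at least 12.1-fold lower. Tfap2c, a factor of surface ectoderm and germ cells, was at least 11.7-fold lower, and Has2, the main embryonic hyaluronan synthase, at least 10.7-fold. Foxd4, a forkhead factor of the anterior embryo, read 10.51, 7.97 and 10.41 in endoderm and 5.80 to 5.89 in intestine, at least 8.62-fold lower, so endoderm 2 stood well below the other endoderm arrays.

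Phlda2, an imprinted gene that restrains placental growth, fell by 4.56 ± 0.27, from 11.68, 10.80 and 11.20 to 6.77, 6.79 and 6.44. Lin28a, the RNA-binding protein that blocks let-7 maturation, fell by 3.86 ± 0.20. In intestine it read 6.52 to 6.57 and was detected on 2 of the 3 arrays. Trh, for thyrotropin-releasing hormone, fell by 3.70 ± 0.28, from 10.92, 9.30 and 10.61. Defa31 names a probe of the alpha-defensin family, whose members are copies of one another, and read 9.75 to 10.05 in endoderm and 5.92 to 6.02 in intestine, at least 10.3-fold lower. In the E8.25 ectoderm arrays the 12 decreased genes had means from 7.76 for Has2 to 11.32 for Gbx2, and in the mesoderm arrays from 6.61 for Defa31 to 12.27 for Phlda2. Phlda2, Lin28a (10.98) and Irx3 (10.97) were higher in mesoderm than in endoderm by their means. Gbx2, Foxd4 (10.39) and Lin28a (10.47) were higher in ectoderm than in endoderm, and the remaining members of the 12 were lower there. Otx2 stood at 10.43 in ectoderm against 10.51 in endoderm. The part of cells or RNA of either layer in the endoderm values was not tested. Against the mean of the other E11.5 organs 3 of the 12, Car4, Irx3 and Has2, were lower in intestine (1.08% of genes tested were). That mean hides single organs. Pancreas stood near intestine for these 3: Car4 at 6.08 against 6.05, Irx3 at 6.03 against 6.23 and Has2 at 6.06 in both. Liver was also low for Irx3 (6.17) and Has2 (6.15).

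Of 28 intestinal and gut transcription factors tested, 14 were higher and 2 lower, with a median change of 0.96 (0.80 with bounded genes at their bound). Over all genes tested the shares were 4.83% higher and 3.64% lower, against which each list count below is to be read. The leading members after Osr2, Isx and Onecut2 were nuclear receptors and zinc finger factors of the gut. Hnf4a, a receptor that drives hepatic and enterocyte genes, read 6.56, 6.68 and 7.07 in endoderm and 9.56, 9.33 and 8.77 in intestine, 2.45 ± 0.25 higher. Nr5a2, a receptor of bile acid and crypt biology, rose by 2.44 ± 0.25, Klf5, a factor of proliferating gut epithelium, by 2.21 ± 0.23, and Klf4, of its differentiated cells, was at least 4.12-fold higher. Gata6 rose by 2.16 ± 0.15, from 8.69 to 8.87 to 10.88 to 11.01. Gata5 differed by 0.67, under 2-fold. Gata4 was detected on 0 endoderm arrays and was at least 1.55-fold higher, without a call. Among the Foxa pioneer factors, Foxa1 rose by 1.94 ± 0.39 and Foxa3 by 1.18 ± 0.21, while Foxa2 differed by 0.21 ± 0.19 (adjusted p = 0.458) and lay below the mean of the other organs, at -1.33. The call of Foxa3 did not hold in every fit that left out 1 array, nor did those of Elf3, at 1.14, and Nr1h4, the bile acid receptor, with a fitted 1.04.

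The caudal factors diverged. Cdx2 read 10.30, 10.69 and 10.63 in endoderm and 12.24, 12.13 and 11.99 in intestine, 1.58 ± 0.30 higher (adjusted p = 0.000243). Cdx1 read 8.98, 7.91 and 9.03 in endoderm and 6.41, 6.69 and 7.13 in intestine, and fell by 1.90 ± 0.38 (adjusted p = 0.000429). Cdx4, an early posterior factor, was at least 2.65-fold lower. Cdx2 was thus already high in E8.25 endoderm, as in ectoderm at 10.61 and mesoderm at 9.61, and the other 5 organs stood at 5.96 to 6.69. Its change from endoderm differed from that of the other organs by 5.88 ± 0.23. Sox9, a factor of progenitors, rose by 1.24 ± 0.14. Pdx1, the factor of the duodenum and pancreas, had a mean of 6.89 in intestine, where 2 of the 3 arrays detected it, and was detected on 0 endoderm arrays, at least 1.48-fold higher (adjusted p = 0.00148), without a call.

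**Figure D4:**
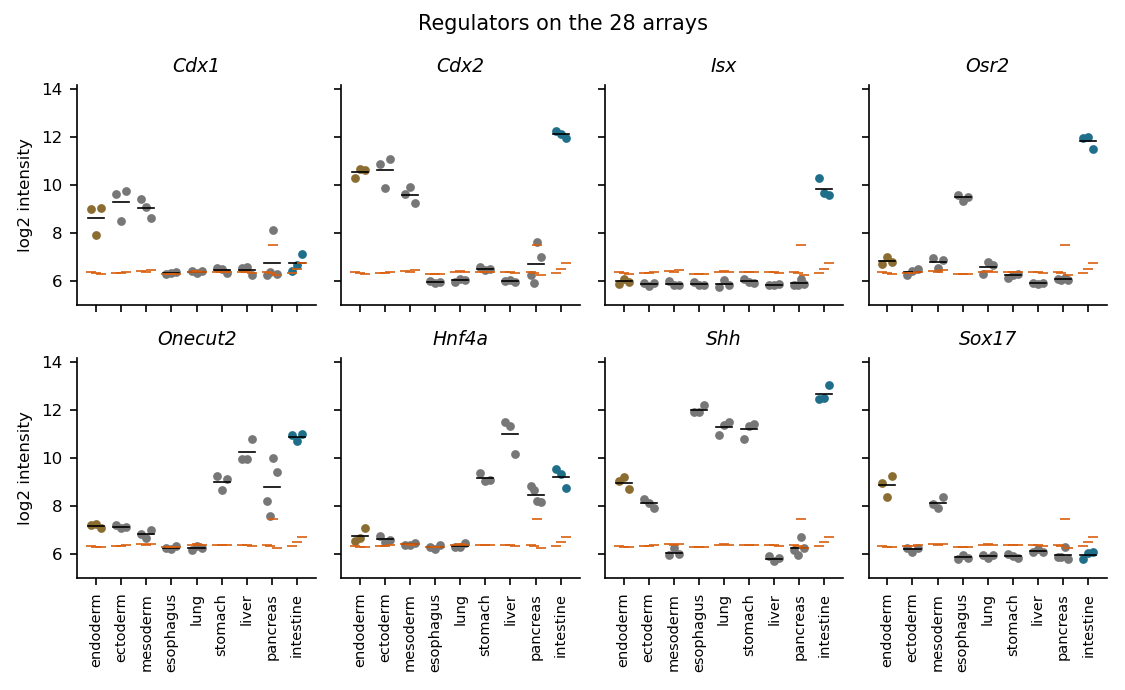
Log2 intensity of 8 regulators on each of the 28 arrays by group; black bars are group means and orange marks each array's detection threshold. Isx is high in intestine alone, Cdx2 in intestine and the E8.25 layers, Cdx1 in the E8.25 layers, and Sox17 in endoderm and mesoderm.

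Epithelial lectins, trefoil factors and junction genes of the later gut were among the increases. In the list of adhesion and mucin genes 8 of 16 tested rose, 0 fell, and the median change was 1.36. Besides Tspan8 and Lgals2 these were Lgals4, a galectin of apical transport, at 2.81 ± 0.20, and Krt20, a keratin of differentiated gut cells, at least 5.49-fold. The claudins Cldn23 and Cldn3 of the tight junction rose by 2.24 ± 0.13 and 1.94 ± 0.18. Tff3, a goblet cell trefoil peptide, read 5.86 to 6.09 in endoderm and 8.80, 8.34 and 7.25 in intestine, at least 3.5-fold higher, with intestine 3 the lowest. Tff1, a trefoil peptide best known from stomach, followed the same order of arrays and was at least 3.47-fold higher.

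Of the brush border and digestive genes, 4 of 13 tested rose, 0 fell, and the median was 0.42. Cdhr5, a cadherin that links microvilli, read 5.98, 6.16 and 6.05 in endoderm and 9.05, 9.23 and 8.09 in intestine, at least 5.54-fold higher. Vil1, the actin bundler villin, rose by 2.25 ± 0.16, from 6.38 to 6.47 to 8.38 to 9.06. The peptidases Anpep and Dpp4 rose by 1.82 ± 0.15 and 1.61 ± 0.16, Dpp4 from an endoderm mean that was already 9.04. A further 13 members on the array were not tested, because no group had them detected on every array. Among the pan-epithelial junction and keratin genes 3 of 30 rose and 1 fell, and the median was 0.32. Krt8 and Krt18, the paired keratins of simple epithelium, differed by -0.60 and -0.89, both under 2-fold.

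The genes of fat absorption showed no common direction: 3 of 16 tested rose, 1 fell, and the median was -0.03. Apoa1, the main protein of high-density lipoprotein, read 8.20, 8.67 and 8.22 in endoderm and 10.96, 11.04 and 10.68 in intestine, 2.53 ± 0.22 higher. Rbp4, the plasma carrier of retinol, rose by 2.04 ± 0.37, and Ttr, which carries thyroid hormone, by 1.01 ± 0.38, a call that did not hold in every fit leaving out 1 array. Mogat2, which rebuilds triglyceride in the enterocyte, fell by 2.52 ± 0.18. Fabp1, Fabp2 and Apoa4, abundant in the mature gut, were detected on 0 of the 6 arrays.

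The transcripts best known from liver rose in part. Of 25 liver genes tested 10 were higher, 0 lower, and the median was 0.22. Beyond those named, Serpina1a was at least 8.82-fold higher, Trf, for transferrin, rose by 2.57 ± 0.33, and Afp, for alpha-fetoprotein, by 2.07 ± 0.34, from a mean of 6.47 to one of 8.54. The summed signal of the 30 list members on the array was 3120 to 4310 in endoderm and 23400 to 29000 in intestine. Other hepatocyte genes, Ahsg, Apoh, Apoa2 and Alb, were detected on 0 of the 6 arrays. Fgg, for fibrinogen gamma, differed by -0.21 ± 0.20. In the liver arrays Ambp stood at 14.23, Trf at 13.94 and Afp at 12.66, against intestinal means of 12.81, 9.14 and 8.54. The part of any liver cells in the intestine samples was not tested. Pancreas genes gave 0 higher and 0 lower of 14.

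Enzymes that conjugate and oxidize foreign compounds rose in number: 13 of 25 tested were higher, 1 was lower, and the median was 1.07. Gsto1, an omega-class glutathione transferase, read 9.28 to 9.37 in endoderm and 12.37, 12.19 and 12.18 in intestine, 2.93 ± 0.14 higher. Cyp2s1, an epithelial cytochrome P450, rose by 2.77 ± 0.15. Aldh1b1, a mitochondrial aldehyde dehydrogenase, was at least 5.3-fold higher, and the glucuronosyltransferase Ugt2b36 at least 4.41-fold. Gpx2, the gastrointestinal glutathione peroxidase, went the other way, by -1.96 ± 0.22, from 9.18 to 9.59 to 7.36 to 7.38. Probes of the Ugt2b and glutathione transferase families may read more than 1 member.

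The genes of sterol synthesis gave 9 higher and 1 lower of 21, with a median of 0.79. Stard4, a cholesterol carrier, read 9.06 to 9.30 in endoderm and 10.99 to 11.28 in intestine, 1.94 ± 0.11 higher. Hmgcs1, which makes the HMG-CoA of the mevalonate pathway, rose by 1.58 ± 0.18, Insig1, its feedback regulator, by 1.58 ± 0.19, and Hsd17b7, a later step, by 1.35 ± 0.14. Scd1, a fatty acid desaturase, fell by 1.38 ± 0.19. Of these 9 genes 1, Stard4, was also higher in intestine than in the other organs (2.69% of genes tested were). Without intestine 3 the list had 7 higher.

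**Figure D5:**
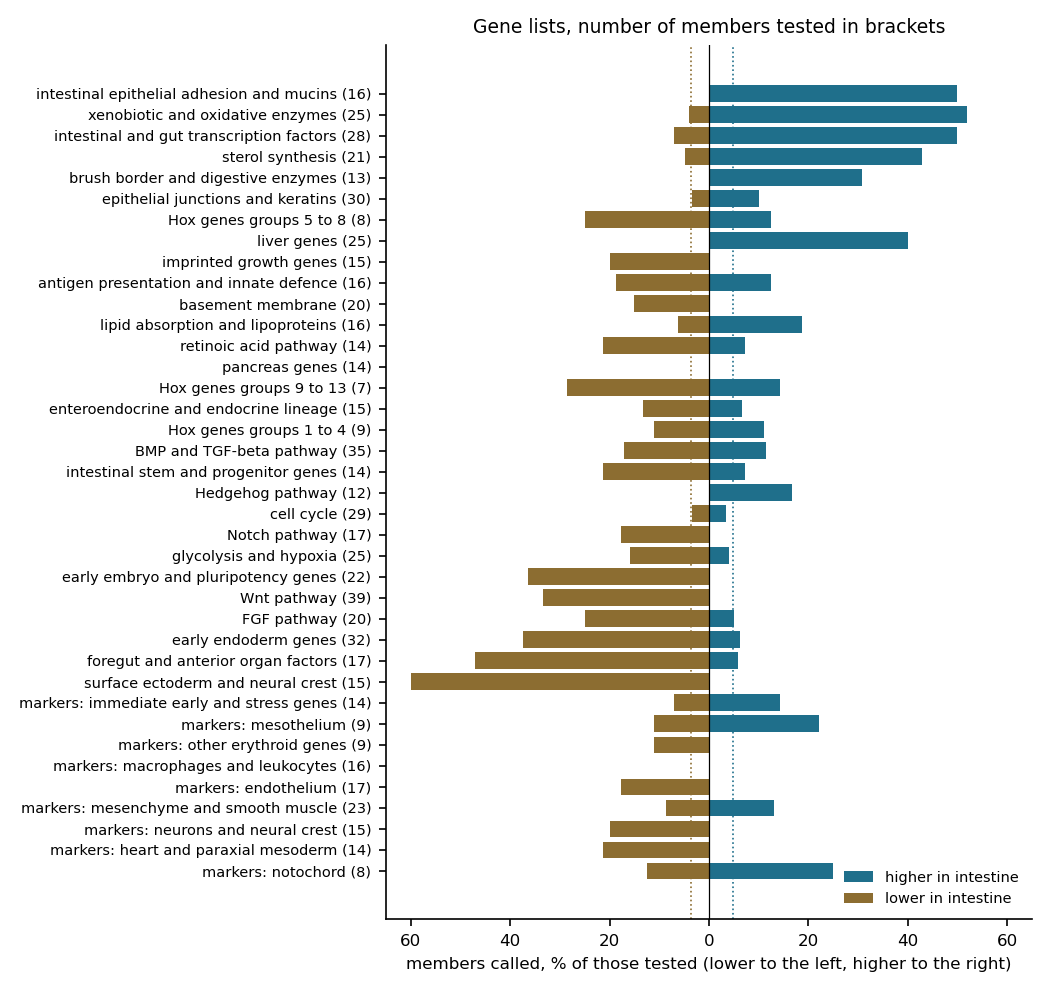
Share of the tested members of each gene list called higher (to the right) or lower (to the left) in intestine, in %, sorted by median change, with marker lists of other cell types at the bottom. Dotted lines mark the shares of all genes tested, 4.83% higher and 3.64% lower; globins are not drawn.

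Of 32 early endoderm genes tested 12 fell, 2 rose, and the median was -0.80 (-0.44 with bounded genes at their bound). Sox17, the factor that specifies definitive endoderm, read 8.98, 8.40 and 9.25 in endoderm and 5.82 to 6.10 in intestine, at least 5.11-fold lower. Pyy, for a gut peptide hormone, read 9.46, 9.87 and 9.78 and then 6.12 to 6.29, at least 9.07-fold lower, while in the pancreas arrays it stood at 13.55. Car4, Otx2 and Trh, given above, belong to the same list. The 2 members that rose were the uroplakin Upk1a, by 1.49 ± 0.30, and Krt19, by 1.02 ± 0.24.

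Anterior and foregut factors fell in 8 of 17 tested, with 1 higher and a median of -0.81. After Irx3, Otx2 and Irx5 the next was Sox21, a Sox2 relative, which fell by 2.92 ± 0.46 from 10.14 to 10.20 to 7.10 to 7.52. Sox2, the factor of esophagus and stomach, was at least 2.04-fold lower. The exception was Foxq1, a forkhead factor of stomach, which rose from a mean of 7.43 to one of 8.93. Of the 17 genes tested, 6 were lower in intestine than in the mean of the other organs, against 1.08% of all genes tested.

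Regulators best known from surface ectoderm and neural crest fell in 9 of 15 tested, 0 rose, and the median was -1.73 (-1.37 with bounds). Besides Tfap2c these included Tfap2a, at least 7.89-fold lower, Foxi2, at least 7.37-fold, and Wnt6, at least 5.74-fold. Foxi2, a forkhead factor of cranial ectoderm, read 8.71, 10.53 and 8.97 in endoderm, highest on endoderm 2. Their mean levels in the E8.25 ectoderm arrays were lower than in the endoderm arrays: Tfap2a stood at 8.31 against 9.50 and Wnt6 at 7.82 against 9.04, and Foxi2 at 7.15. In sum over the 17 list members on the array the signal was 3910 to 6200 in endoderm and 407 to 472 in intestine. Whether cells of the embryo's outer surface were in the endoderm samples was not tested.

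Genes of the early embryo and pluripotent cells fell in 8 of 22 tested and rose in 0 (median -0.44). Dnmt3b, the de novo DNA methyltransferase of the early embryo, read 13.09, 12.63 and 13.01 in endoderm and 10.26 to 10.37 in intestine, and fell by 2.60 ± 0.14. Nanog, a core pluripotency factor, read 7.80, 6.73 and 8.01 against 5.98 to 6.16, at least 1.99-fold lower. Sall4, a zinc finger factor of stem cells, fell by 1.10 ± 0.21 but stayed at 11.11 to 11.19, above the mean of the other organs by 1.51. Pou5f1 was detected on 0 intestine arrays and was at least 1.29-fold lower, without a call.

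The Hox genes, which mark position along the body, changed in both directions. Groups 1 to 4 had 1 of 9 higher and 1 lower, groups 5 to 8 had 1 of 8 higher and 2 lower, and groups 9 to 13 had 1 of 7 higher and 2 lower. Of all genes tested 4.83% were higher and 3.64% lower, and with so few members per group these counts are descriptions only. Hoxd10 read 6.38 to 6.49 in endoderm and 8.32, 8.31 and 8.91 in intestine, 2.07 ± 0.15 higher. Hoxd4 rose by 1.21 ± 0.24 and Hoxa5 by 1.05 ± 0.38, neither in every fit that left out 1 array. Hoxc6 read 8.61, 10.09 and 8.76 in endoderm and 7.45, 7.88 and 6.48 in intestine, and fell by 1.88 ± 0.43. Hoxa7 went from a mean of 9.90 to one of 8.40 (adjusted p = 0.00012), and Hoxb1 was at least 2.59-fold lower. Hoxc9 fell by 1.19 ± 0.28 and Hoxb9 read 7.33 to 7.93 in endoderm and 6.43 to 6.98 in intestine. The calls of Hoxc9 and Hoxb9 did not hold in every fit that left out 1 array. Of the other members of groups 9 to 13 tested, Hoxa9 differed by -0.07, Hoxa13 by 0.08, Hoxc10 by 0.33 and Hoxd9 by -0.65.

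Endoderm 2 stood above the other endoderm arrays for several of these genes and below them for some others. Hoxc9 read 8.78 there against 7.26 and 7.19, and Hoxa7 read 10.59 against 9.52 and 9.59. Trp63, a factor of stratified epithelium, read 8.75 against 7.54 and 7.40. Otx2, Foxd4, Trh and Cdx1 were each lowest on endoderm 2. Anterior genes did not all do so: Irx3 read 10.90, 10.88 and 10.63 on endoderm 1, 2 and 3. The standard errors and p-values come from the model of all arrays, which pools the spread within groups over the whole series. They therefore do not measure the spread of the endoderm arrays alone. What set endoderm 2 apart was not tested.

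Both Hedgehog ligands tested rose, while several Wnt and FGF ligands fell. Shh, the Hedgehog ligand that gut epithelium sends to the mesenchyme, read 9.04, 9.21 and 8.72 in endoderm and 12.47, 12.51 and 13.07 in intestine, 3.69 ± 0.20 higher (adjusted p = 5.58e-13). Ihh, its relative, read 7.34 to 7.43 and then 8.78, 8.75 and 10.14, 1.84 ± 0.35 higher, highest on intestine 3. Some genes of the receiving side of the pathway lay near background, where a change could be missed. The receptor and target Ptch1 was detected on 2 endoderm arrays and 1 intestine array, and Gli1 on 0 of the 6. Smo and Gli3, also of the receiving side, were tested and not called. Over 21 other settings they differed by -0.66 to -0.46 and by -0.86 to -0.27. Hhip, a target that binds the ligand, differed by -0.42 ± 0.12 and was detected on 1 intestine array. Of 12 pathway genes tested 2 rose and 0 fell, with a median of -0.20.

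Of 39 Wnt pathway genes tested 13 fell and 0 rose, with a median of -0.52 (-0.37 with bounds). Wnt3a, a ligand of the tail bud, was at least 4.91-fold lower. Axin2, a feedback inhibitor and common readout of beta-catenin, read 10.24, 10.42 and 10.36 in endoderm and 7.89, 7.99 and 8.08 in intestine, and fell by 2.35 ± 0.14. Sp5, another direct target, fell by 2.23 ± 0.28. Axin2 had means of 7.71 to 8.83 in the other 5 organs, and its intestinal level differed from their mean by -0.06. Lgr5, which marks crypt stem cells in the adult, read 7.10 to 7.40 and then 6.43 to 6.79, a difference of -0.68 ± 0.17. In the list of stem and progenitor genes 3 of 14 fell and 1, Sox9, rose, while Olfm4 and Ascl2 were detected on 0 of the 6 arrays.

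In the BMP and TGF-beta pathway 6 of 35 fell and 4 rose (median -0.15). Bmp4, a ligand, read 9.85, 10.36 and 9.62 in endoderm and 7.27, 7.97 and 7.57 in intestine, and fell by 2.34 ± 0.21. The Id genes, targets of BMP that block basic helix-loop-helix factors, split: Id1 fell by 2.05 ± 0.18, Id3 by 1.73 ± 0.18, and Id4 was at least 1.72-fold lower. Id2 rose by 2.02 ± 0.32, from 9.03 to 9.43 to 11.12 to 11.36. Tgfbr3, a TGF-beta co-receptor, rose by 1.28 ± 0.24.

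In the FGF pathway 5 of 20 fell and 1 rose (median -0.55, -0.35 with bounds). The ligands Fgf17 and Fgf8, made at signalling centres of the early embryo, were at least 6.08-fold and 4.26-fold lower, and Flrt3, a membrane partner of FGF receptors, fell by 1.80 ± 0.27. Fgf9, a ligand that gut epithelium sends to mesenchyme, rose by 1.32 ± 0.17. Without intestine 3 the count of lower FGF genes was 4. In the Notch pathway 3 of 17 fell and 0 rose (median -0.37). These were the target Hey1, by 2.53 ± 0.15 from 9.70 to 9.95, the feedback gene Nrarp, by 2.18 ± 0.17, and Hey2, at least 1.75-fold. Hes1, a further target, differed by 0.27. Retinoic acid genes gave 3 lower and 1 higher of 14 (median -0.05). The retinoic acid binding proteins Crabp1 and Crabp2 fell by 2.47 ± 0.25 and 1.24 ± 0.31.

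Endocrine genes were sparse at this age. Of 15 tested 1 rose and 2 fell (median -0.13). Rfx6, a factor required for islet and gut endocrine cells, read 7.44, 7.82 and 7.48 in endoderm and 10.24, 9.71 and 10.16 in intestine, 2.45 ± 0.25 higher. Isl1, a LIM factor of endocrine and other lineages, fell by 1.71 ± 0.22, and Pyy is given above. Neurog3, which starts the endocrine program, was detected on 0 of the 6 arrays.

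The glucose transporters Slc2a1 and Slc2a3 fell. Slc2a1, the general glucose transporter, read 13.83, 13.47 and 13.80 in endoderm and 10.98, 10.96 and 10.49 in intestine, and fell by 2.89 ± 0.25. Slc2a3, the high-affinity transporter, read 13.88 to 13.92 and then 11.46 to 11.61, and fell by 2.37 ± 0.37. Of 25 genes of glycolysis and hypoxia 4 fell and 1 rose (median -0.39). Slc2a3 was nevertheless 2.25 higher in intestine than in the mean of the other organs. Cell cycle genes gave 1 higher, Cdkn1a, an inhibitor of cyclin-dependent kinases, by 1.49 ± 0.23, and 1 lower, Ccne1, cyclin E1, by 1.20 ± 0.14, of 29 tested (median -0.37). These counts lie near the shares of all genes tested, 4.83% higher and 3.64% lower.

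Among 15 imprinted growth genes 3 fell and 0 rose (median 0.19). Besides Phlda2 these were Mest, which read 11.91, 12.21 and 12.45 in endoderm and 8.38, 8.89 and 8.51 in intestine and fell by 3.60 ± 0.31, and Snrpn, a splicing protein gene, by 1.40 ± 0.14. Igf2, the fetal growth factor, read 13.77 to 14.08 and then 14.19 to 14.32, a difference of 0.36 ± 0.14 (adjusted p = 0.0509). Of 20 basement membrane genes 3 fell and 0 rose (median -0.00139). Nid2, a linker of laminin and collagen IV, fell by 3.45 ± 0.14 from 9.76 to 9.95 to 6.17 to 6.63. Its relative Nid1 was detected on 1 of the 6 arrays. The integrin subunit Itga3 fell by 1.67 ± 0.17 and Col18a1 by 1.54 ± 0.17. Of 16 genes of antigen presentation and innate defence 2 rose and 3 fell (median 0.15). B2m, the light chain of MHC class I, rose by 1.32 ± 0.22, and Irf1, an interferon-responsive factor, by 1.24 ± 0.21. Ifitm3 and Ifitm1, membrane proteins abundant in early embryos, fell by 2.37 ± 0.27 and 2.27 ± 0.30, and the chemokine Cxcl12 by 2.11 ± 0.28.

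Among markers of other cell types, the endothelial, neuronal and heart or paraxial mesoderm lists had decreases called and no increase with all arrays kept. Of all genes tested 3.64% were lower. Macrophage and leukocyte genes had 0 higher and 0 lower of 16, and their summed signal was 370 to 452 in endoderm and 310 to 467 in intestine. Endothelial genes had 0 higher and 3 lower of 17, led by Flt1, a VEGF receptor, at least 6.31-fold lower from 8.95 to 9.45 in endoderm. The median change of the endothelial list was 0.07, and without intestine 3 it had 1 higher and 3 lower. The endothelial sum was 2410 to 2890 in endoderm and 2370, 2780 and 1040 on intestine 1, 2 and 3. Mesenchyme genes had 3 higher and 2 lower of 23, with sums of 2270 to 2430 and 2150 to 3270. The highest was the collagen gene Col5a1, at 1.52 ± 0.22, while Col1a1 differed by 0.06 and was detected on 2 of the 6 arrays. Neuronal and neural crest genes had 0 higher and 3 lower of 15, and heart and paraxial mesoderm genes 0 higher and 3 lower of 14. For the latter the sum fell from between 1250 and 1490 to between 379 and 444. The mesothelium list had 2 higher and 1 lower of 9. The notochord list had 2 higher, Shh and Sox9, which gut epithelium also expresses, and 1 lower of 8.

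Immediate early genes, which can rise during dissociation, had 2 higher and 1 lower of 14. Egr1 read 6.63 to 7.19 in endoderm and 11.09, 10.36 and 8.10 in intestine, 2.99 ± 0.71 higher, and Fos read 6.18 to 6.33 and then 9.24, 8.54 and 6.59. Both were lowest on intestine 3, and the call of Fos did not hold in every fit that left out 1 array. The part of handling in other results was not tested.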

How the data were processed

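Per the labels' protocols, RNA extracted with Trizol was amplified and biotin-labelled, and each sample went onto 1 Illumina MouseRef-8 v2 array. The authors' deposited values are linear probe intensities, 25697 probes on 28 arrays; the submitters' processing notes name BeadStudio, without version or role. For scaling and background steps before deposit the sources used here say nothing, and 112 further per-sample columns that no label assigns to a sample were not used. Precision is limited by the number of arrays. The p-values rest on the spread within groups pooled over all 28 arrays, not on the 6 compared arrays alone.

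Intensities were background-corrected with normexp (offset 50), quantile normalized over the 28 arrays and put on the log2 scale. Of the probes, 23978 carried 1 gene symbol, 0 several and 1719 none. The probe with the highest mean stood for each of 16593 symbols, and 9650 genes detected on every array of a group were tested. Detection used 1358 sensory receptor probes, since no detection p-values could be assigned to samples. limma 3.58.1 in R 4.3.3 fitted 9 group means with eBayes and Benjamini-Hochberg adjustment. The fit was tested on simulated data. Samples were grouped by title.

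The genes named are the 12 largest increases and decreases called in all 6 fits that left out 1 array, up to 4 called genes per list and direction, the globins, and members of families described one by one (Cdx, Hox groups 9 to 13, Foxa, Gata, Hnf, Hedgehog ligands, Sox9, Sox17, Fabp, Apo, claudins, keratins). Others were chosen for their known role after their values were seen. The comparison and the gene lists were chosen with earlier results of these data known. A list's count and median are descriptions, and bounds set a gene at its detection limit. Summed signals are of normalized intensities minus the offset. Promoters came from RefSeq (GRCm38.p6). Alternatives covered background correction, normalization, detection, probe choice, array weights, a replicate block and leaving out arrays.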

Additional observations from a re-analysis of the deposited data

Results flagged for a closer look

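In 7 genes the change from endoderm to intestine and the mean change of the other 5 organs from the same endoderm were both called and ran in opposite directions, and a limma test of intestine against those organs passed the threshold. That test was part of the rule that chose the genes, so it adds no support. The value given is the difference of intestine from those organs. Cdx2 rose in intestine and fell in the mean of the others (5.88), as did Hoxd4 (3.27), Trim2, a ubiquitin ligase (2.97), Plac8 (2.90) and Pdzk1, a scaffold of apical transporters (2.74). Capn6, a calpain-like protein, fell in intestine and rose in the mean of the others (-2.51), as did Wnt7b, a ligand of lung epithelium (-2.44). The means hide single organs: stomach held Plac8 at 10.92 against 11.05 in intestine, and liver held Pdzk1 at 9.36 against 9.48. For Wnt7b lung stood at 12.11 and pancreas at 9.46. Trim2 stood at 10.44 in esophagus and 10.50 in lung, close to 10.58 in endoderm. In liver Capn6 stood at 9.61 and Wnt7b at 5.87, below their endoderm means of 9.87 and 7.37. The calls of Capn6 and Hoxd4 against endoderm did not hold in every fit that left out 1 array.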

How the results depend on the processing

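Leaving out 1 endoderm or intestine array in turn gave 431 to 520 higher and 336 to 401 lower genes against endoderm. Against the other organs only intestine arrays were left out in turn, which gave 261 to 282 higher and 97 to 118 lower genes. Without pancreas 3 the counts against the other organs were 260 and 111. Leaving intestine 3 out of every step, an alternative chosen after seeing the data, gave 529 and 407, and leaving out pancreas 3 as well 537 and 413. Array weights, which gave intestine 3 a weight of 0.157, gave 527 and 416. Of these, 442 and 330 were among the 466 and 351. The counts were highest under 3 settings, and the cause was not tested: 751 higher and 710 lower with no background correction, which also replaced the offset of 50 by a floor of 16, 742 and 676 when receptor probes served as the negative controls, and 666 and 587 at an offset of 16. In each of these 3 settings, 465 of the 466 higher and all 351 lower genes remained. The mean of all probes of a gene gave 390 and 277. Across all settings tried the 24 genes with the largest changes kept their call. They were chosen from genes called in all 6 fits that left out 1 array, so those settings could not change it. Of the 193 called genes named or listed, 151 kept their call in every setting, and no called gene turned to a call in the other direction. Of 94 other probes of 61 of these genes, 36 changed by at least 2-fold in the same direction, 19 by less and 39 were not detected throughout either group.

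The replicate numbers were not shown to pair samples: the deviations of same-numbered arrays correlated at -0.02, -0.03 and 0.06. With the replicate block on the 6 arrays, 471 genes were higher and 359 lower. Near background the corrected values are compressed, so changes of dim genes are understated or only bounded, and intestine 3 had the highest detection threshold of the 6 arrays.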
